A study of Mus musculus with 9 samples.

Results

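The genes described here encode the link proteins, lecticans and tenascins of the hyaluronan matrix: Hapln1, Hapln2, Hapln3, Hapln4, Acan, Bcan, Ncan, Vcan, Tnr and Tnc. They are 10 of the 23997 gene symbols listed for each library and were picked by symbol, with earlier results of these libraries known. Their values are therefore given as a description, and no p-value is attached to them. Retinal ganglion cells (RGCs), the neurons whose axons form the optic nerve, were purified from wild type C57BL/6J mice of both sexes by successive immunopanning, in which unwanted cells stick to coated dishes and RGCs are finally captured through the surface protein Thy1.2. One of the negative dishes carried the antibody VC1.1 against amacrine cells. Control eyes had received saline, and Mild IOP and Moderate IOP eyes had received polystyrene microbeads in the anterior chamber, which raise the intraocular pressure (IOP), and they were assigned to a group by the size of that rise. All eyes, Control included, also received sodium hyaluronate, and actinomycin D, which blocks transcription, was present in the isolation buffers of all groups. Eyes were injected at 6 weeks of age and RGCs were collected 2 weeks later, at 8 weeks. The RNA of each group was pooled over animals and divided into 3 replicates, with fewer retinas behind the Moderate IOP pool, so the 9 libraries came from 3 pools, and every SD and standard error below covers technical spread and not spread between animals.

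Hyaluronan is a very long sugar chain that fills the space between cells. Lecticans are chondroitin sulfate proteoglycans that grip it at one end, link proteins lock this grip, and tenascins tie the far ends of the lecticans together. In the central nervous system this meshwork is best known as the perineuronal net, a coat around the body and proximal dendrites of certain neurons, and as a barrier to growing axons. Each link protein gene lies beside a lectican gene in mammals.

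The deposited values were FPKM, fragments scaled to transcript length and to mapped fragments, which can be compared between genes of different length. They were scaled between libraries and are called scaled FPKM below. The depth was derived from the deposited confidence intervals, and lay between 4440000 and 7920000 fragments per library. The libraries carried RGC transcripts in every group. Rbpms, an RNA-binding protein used to define RGCs, was at 84.9, 110 and 68.9 scaled FPKM in the Control replicates, 97.7, 66.5 and 66.0 under Mild IOP and 283, 193 and 110 in Moderate IOP. Transcripts of amacrine cells, inhibitory interneurons that lie next to RGCs, were abundant as well. The 10 amacrine markers summed to 1391 to 1436 scaled FPKM in Control, where the 10 RGC markers summed to 1456 to 1547. In bulk samples, fewer cells of a type and less RNA per cell cannot be told apart.

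Differences between groups were estimated with limma on log2(scaled FPKM + 1) over the 13043 genes with a mean of at least 0.5 scaled FPKM, and a gene was called at an FDR below 0.1. Of the 10 members, 6 reached this level (Hapln3, Hapln4, Bcan, Ncan, Tnr and Tnc) and 4 did not (Hapln1, Hapln2, Acan and Vcan). Across all genes, 0.399% were called between Mild IOP and Control, 1.84% between Moderate IOP and Control, and 10.2% between Moderate IOP and Mild IOP. The calls among members were Hapln3 between Mild IOP and Control, Hapln3 and Tnc between Moderate IOP and Control, and Tnc between Moderate IOP and Mild IOP. The values of these genes chose them, so nothing is read from these calls. Both comparisons with Control share its 3 libraries.

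Promoter windows are shown, as a description, for Hapln3, the tested member with the largest log2 difference between Moderate IOP and Control, and for Tnc, the most abundant member. Each holds the 250 bases before the transcription start as RefSeq gives it on build GRCm38.p6, written 5′ to 3′ on the minus strand on which both genes lie. Capitals mark the letters TATAAA, found on either strand in 13% of 27025 such windows, and GGGCGG, found in 32.9%. The motif TGANTCA, present in 6.87% of windows, was searched as well and had no match in either.
Hapln3, chr7:79131019-79131268: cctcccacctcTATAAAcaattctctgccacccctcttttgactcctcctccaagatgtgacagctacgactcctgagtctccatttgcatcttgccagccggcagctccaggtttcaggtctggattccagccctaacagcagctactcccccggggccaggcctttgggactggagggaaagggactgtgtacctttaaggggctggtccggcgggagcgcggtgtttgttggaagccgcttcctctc
Tnc, chr4:64047016-64047265: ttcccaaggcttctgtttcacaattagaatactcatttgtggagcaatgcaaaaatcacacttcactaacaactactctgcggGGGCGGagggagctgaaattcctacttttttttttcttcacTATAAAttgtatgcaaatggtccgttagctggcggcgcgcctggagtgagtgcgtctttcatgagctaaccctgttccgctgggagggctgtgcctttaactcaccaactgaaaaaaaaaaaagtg
Neither window overlaps an exon of the GENCODE annotation. The Hapln3 window lies within the longest span that RefSeq gives the gene, which reaches position 79133173. The Tnc window lies within 8030451A03Rik, a noncoding gene on the opposite strand that overlaps Tnc and is not listed in the files. The library kit does not mark strand, so where exons of 8030451A03Rik and Tnc coincide, their fragments cannot be told apart. Whether any exons coincide is not given here. Each window holds 8 CpG dinucleotides, against a median of 6 over all windows.

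**Figure D1:**
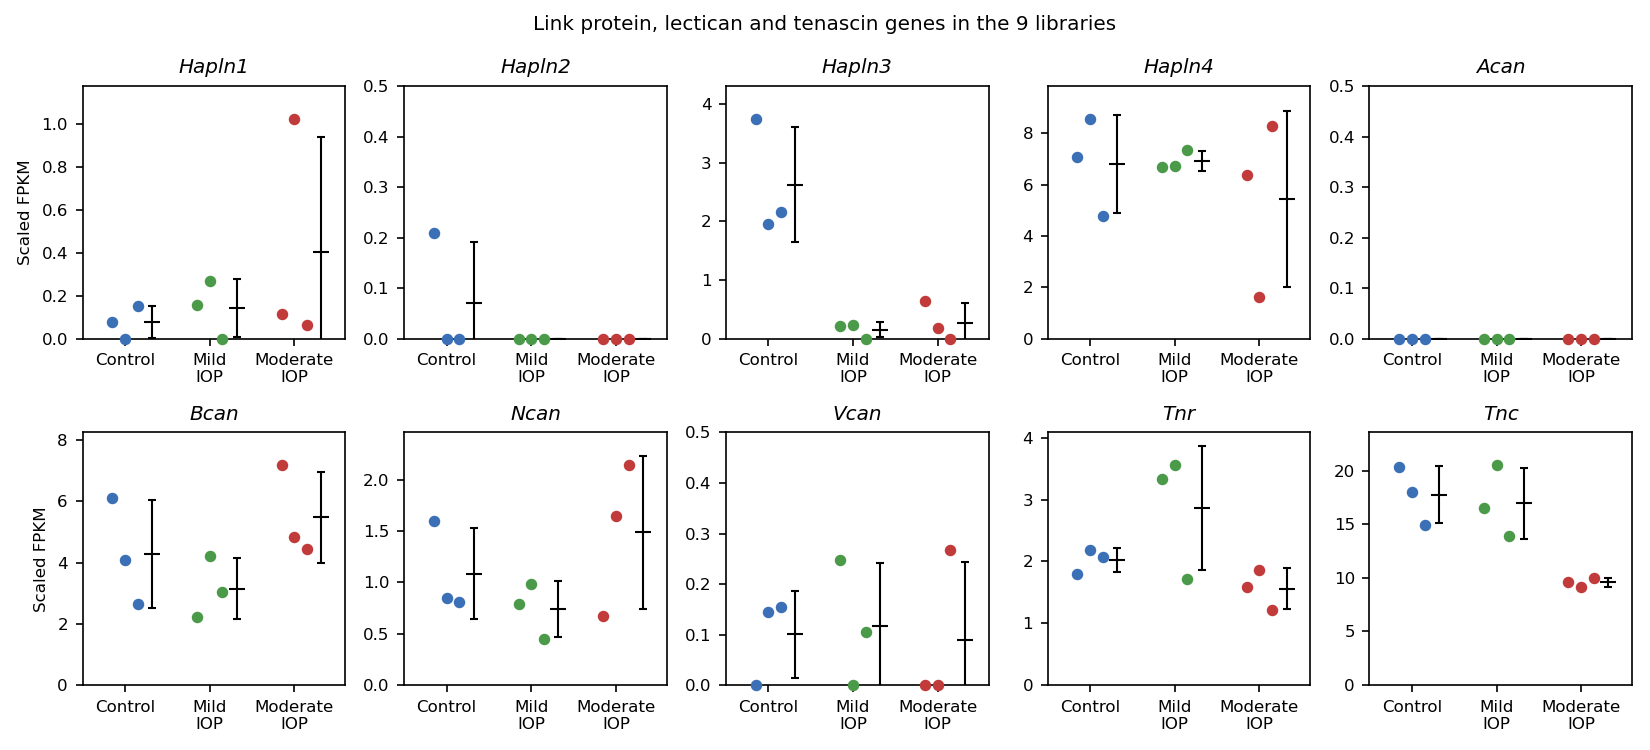
Scaled FPKM of each of the 10 members (vertical axis, a different scale in each panel) in the Control, Mild IOP and Moderate IOP libraries. Points are single libraries, replicates 1 to 3 from left, and bars show the mean and SD of 3, drawn down to 0 at most. Hapln3 was at 1.96 or above in the Control libraries and at 0.642 or below elsewhere, and the 3 Moderate IOP values of Tnc, from 9.17 to 9.95, lay below all others.

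The members spanned the range from undetected to moderately abundant. Tnc was at 14.8 scaled FPKM on average over the 9 libraries and exceeded Hapln4, the next, in all of them. Of all listed symbols, 79.5% had a lower mean than Tnc. Hapln4 averaged 6.39, Bcan 4.31, Tnr 2.15, Ncan 1.10 and Hapln3 1.02. From Hapln4 downward, the ranges of neighbours in this order overlapped. Hapln4 exceeded Bcan in 7 libraries, Bcan exceeded Tnr in 8, Tnr exceeded Ncan in 8 and Ncan exceeded Hapln3 in 6. Hapln1 averaged 0.207, Vcan 0.102 and Hapln2 0.0233, and Acan was at 0 throughout. Tnc alone supplied 49.6 to 54.0% of the summed scaled FPKM of the 10 genes in the Control libraries, 52.4 to 56.2% in Mild IOP and 36.7 to 45.1% in Moderate IOP.

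Among the link proteins, Hapln3 differed most between groups and Hapln4 was the most abundant. Hapln3, whose product is the link protein least tied to the nervous system and is found in many tissues, was at 3.75, 1.96 and 2.16 scaled FPKM in the Control replicates. It was at 0.220, 0.224 and 0 under Mild IOP and at 0.642, 0.177 and 0 in Moderate IOP. All Control libraries were therefore above all IOP libraries, and the IOP groups overlapped each other. The Control values rest on 34, 23 and 14 fragments, the Mild IOP values on 2, 2 and 0, and the Moderate IOP values on 4, 2 and 0. The difference on the log2(scaled FPKM + 1) scale was −1.63 (SE 0.31) between Mild IOP and Control, −1.51 (SE 0.31) between Moderate IOP and Control, and 0.12 (SE 0.31) between Moderate IOP and Mild IOP. With IOP values below the added 1, this scale understates the difference, and with so few fragments no fold is given. Groups that do not overlap, the first group lower, were found for 9.13% of genes between Mild IOP and Control and for 9.48% between Moderate IOP and Control. Over the alternative settings, Hapln3 remained lower in both comparisons, at −1.42 or below for Mild IOP and −1.30 or below for Moderate IOP. Its call was lost in 11 of 19 settings for Mild IOP, among them the omission of any Control or Mild IOP replicate or of Moderate IOP replicate 2, and in 6 of 19 for Moderate IOP, among them the omission of Control replicate 1 or 2 or of Moderate IOP replicate 2 or 3.

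The genes whose profile over the 9 libraries lay closest to Hapln3 were Lim2, Hist1h4h and Aqp1, with root mean square distances of 0.327, 0.397 and 0.430 on the log2 scale. Lim2, which encodes a lens fiber membrane protein, was at 4.59, 2.69 and 3.01 scaled FPKM in the Control replicates and at 0 in all 6 IOP libraries. Hist1h4h, a histone gene, was at 3.43, 0.570 and 0.432 in Control, at 0 in Mild IOP and at 0.679, 0 and 0 in Moderate IOP, so Control and Moderate IOP overlapped. Aqp1, a water channel gene, was at 1.25, 0.635 and 2.09 in Control, at 0.457, 0.312 and 0.0658 in Mild IOP and at 0.522, 0.0417 and 0 in Moderate IOP. All of them were picked for their likeness to Hapln3, so their order is no separate result. The summed level of lens transcripts was also lower in both IOP groups than in Control. The 8 lens markers summed to 291, 307 and 234 scaled FPKM in Control, to 2.87, 0.888 and 1.77 under Mild IOP and to 0.707, 0.602 and 1.62 in Moderate IOP. Of the 6 lens markers tested, 5 fell in each IOP group against Control. Cryaa, the most abundant, averaged 112 ± 18.7 in Control (mean ± SD, n = 3, here and below), 0.684 ± 0.449 under Mild IOP and 0 in Moderate IOP. Crygs, the defining lens crystallin, was at 71.3, 76.6 and 72.4 in Control and at 0 in every IOP library. Bfsp1, the tested lens marker not called, did not follow and overlapped between groups. It averaged 0.523 ± 0.142 in Control, 0.561 ± 0.636 under Mild IOP and 0.924 ± 0.618 in Moderate IOP. The lens markers Mip and Bfsp2 were too low to be tested, at 1.44 or below in every library. The part of lens transcripts in the Hapln3 values was not tested. Rod transcripts also differed in the same direction. The 9 rod markers summed to 515 to 610 scaled FPKM in Control, 333 to 402 under Mild IOP and 359 to 405 in Moderate IOP, with 2 of 9 called lower under Mild IOP and 3 of 9 in Moderate IOP. This list, too, was not tested as a part of the Hapln3 values.

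**Figure D2:**
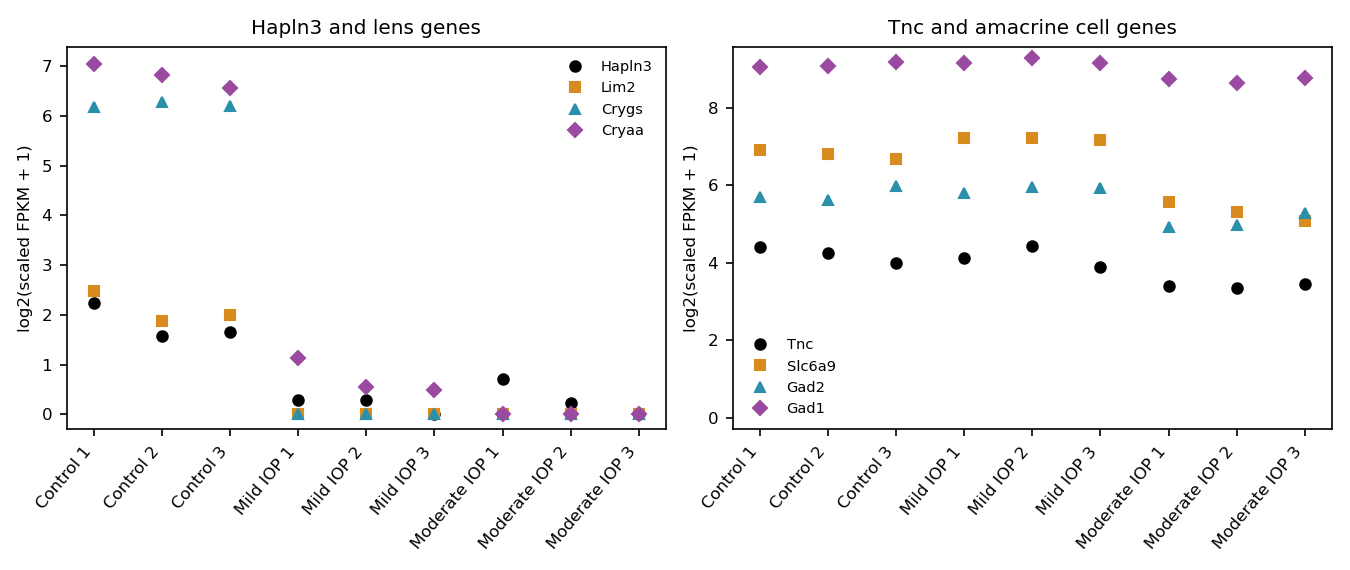
The left panel plots log2(scaled FPKM + 1) of Hapln3 with the lens genes Lim2, Crygs and Cryaa in each library, and the right panel plots Tnc with the amacrine cell genes Slc6a9, Gad2 and Gad1. Hapln3 and the lens genes drawn were higher in every Control library than in any IOP library. Tnc, Slc6a9, Gad2 and Gad1 were each lowest in the 3 Moderate IOP libraries. The lens genes drawn are among those called lower in both IOP groups, and Lim2 was picked for its likeness to Hapln3. Bfsp1, a tested lens gene not drawn, was not called and overlapped between groups. The amacrine genes drawn are among those called lower against Mild IOP, and Gad1 and Gad2 were added after their values were seen. By sign, 5 of the 9 amacrine markers tested were higher in Moderate IOP than in Mild IOP, and 4 were higher than in Control.

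Hapln4, the link protein of perineuronal nets around brainstem and cerebellar synapses, was at 7.06, 8.56 and 4.78 scaled FPKM in the Control replicates and at 6.68, 6.73 and 7.36 in Mild IOP. In Moderate IOP it was at 6.39, 1.63 and 8.30. Moderate IOP replicate 2 thus lay far below the other 8 libraries, and its deposited interval, 1.18 to 2.09 FPKM, did not reach that of either sister library from the same pool. The mean was 6.80 ± 1.90 in Control, 6.92 ± 0.38 under Mild IOP and 5.44 ± 3.43 in Moderate IOP, or 7.35 ± 1.35 without replicate 2. The log2 difference between Moderate IOP and Control was −0.43 (SE 0.40) with all libraries and lay between −0.79 and 0.12 over the alternative settings, so its sign was not fixed. Between Mild IOP and Control the difference was 0.05 (SE 0.40).

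Hapln1, the cartilage link protein that also builds perineuronal nets, was near the limit of detection in 8 libraries and not in the same Moderate IOP replicate 2. It was at 0.0783, 0 and 0.150 scaled FPKM in Control, at 0.158, 0.270 and 0 under Mild IOP and at 0.116, 1.02 and 0.0648 in Moderate IOP. The value of 1.02 rests on 47 fragments and the others on 10 or fewer. Without that library the Moderate IOP mean was 0.0905 ± 0.0363, between the Control mean of 0.0762 and the Mild IOP mean of 0.143. Hapln2, the link protein of nodes of Ranvier, had 3 fragments in Control replicate 1, at 0.210 scaled FPKM, and none in the other 8 libraries, where 3 fragments would give at most 0.289 FPKM.

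**Figure D3:**
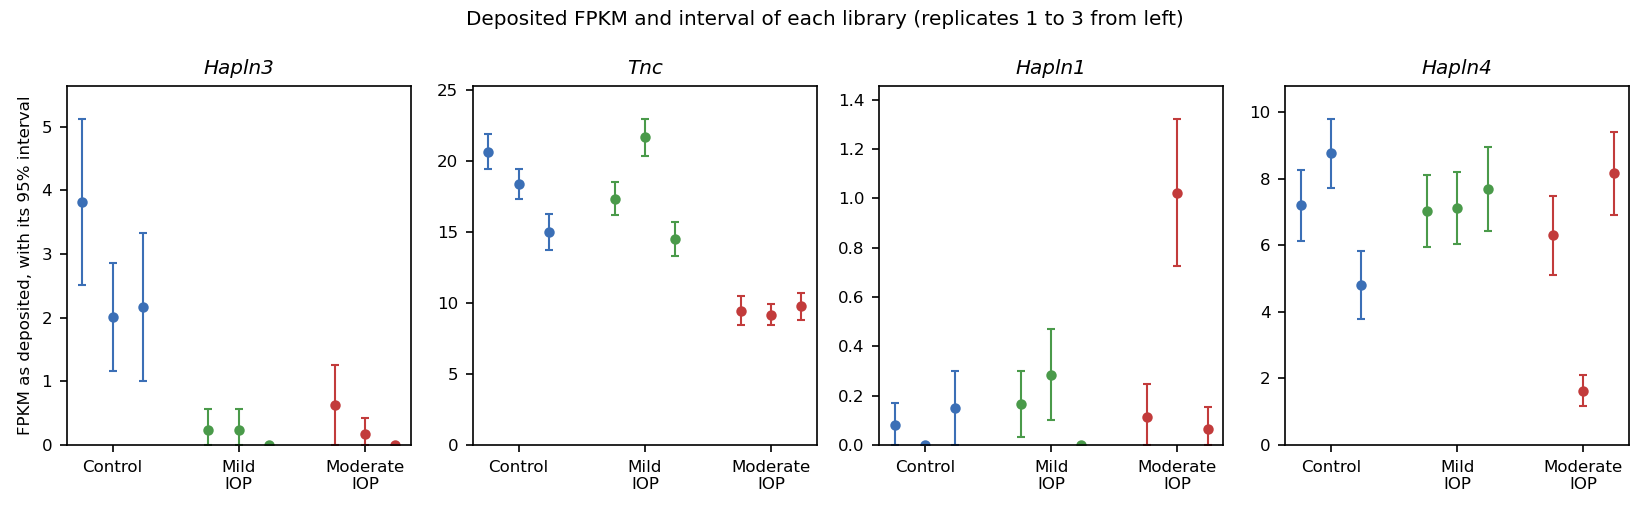
FPKM as deposited, with its 95% interval, for Hapln3, Tnc, Hapln1 and Hapln4 (vertical axis, a different scale in each panel) in each library, replicates 1 to 3 from left. In Moderate IOP replicate 2, Hapln1 was the highest of the 9 libraries, with an interval of 0.724 to 1.32 FPKM, and Hapln4 the lowest. Points at 0 carry no interval in the files.

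The lecticans were led by Bcan, which was higher in Moderate IOP than in Mild IOP without passing the threshold. Bcan encodes brevican, the small lectican of adult brain matrix. It was at 6.12, 4.09 and 2.64 scaled FPKM in the Control replicates, at 2.22, 4.21 and 3.03 under Mild IOP and at 7.18, 4.83 and 4.45 in Moderate IOP. Every Moderate IOP library lay above every Mild IOP library, and Control overlapped both. Moderate IOP was the higher group without overlap for 14.5% of genes in this comparison. The log2 difference was 0.65 (SE 0.30) between Moderate IOP and Mild IOP, 0.33 (SE 0.30) between Moderate IOP and Control and −0.32 (SE 0.30) between Mild IOP and Control.

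Ncan encodes neurocan, a lectican of developing brain and of scars. It was at 1.59, 0.844 and 0.809 scaled FPKM in Control, at 0.787, 0.983 and 0.449 under Mild IOP and at 0.671, 1.65 and 2.14 in Moderate IOP, so the groups overlapped in every comparison. Its log2 difference was 0.48 (SE 0.32) between Moderate IOP and Mild IOP, 0.23 (SE 0.32) between Moderate IOP and Control and −0.25 (SE 0.32) between Mild IOP and Control. The 95% interval of the first ran from −0.22 to 1.18. Vcan, which encodes versican, a large lectican of loose connective tissue and developing brain, rested on 8 fragments in Control, 8 under Mild IOP and 5 in Moderate IOP, and its highest value was 0.267 scaled FPKM, in Moderate IOP replicate 3. Acan, which encodes aggrecan, the core lectican of cartilage and of perineuronal nets, was at 0 in all 9 libraries. At these depths 3 fragments of Acan would give at most 0.0919 FPKM, so lower levels were not detectable.

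The tenascins were the most abundant class, and Tnc was lower in Moderate IOP than in either other group. Tnc encodes tenascin-C, a large six-armed glycoprotein of developing and injured tissue. It was at 20.3, 18.0 and 15.0 scaled FPKM in the Control replicates and at 16.5, 20.5 and 13.9 in Mild IOP. In Moderate IOP it was at 9.62, 9.17 and 9.95. Control and Mild IOP overlapped, and all 3 Moderate IOP libraries lay below both. The mean was 17.8 ± 2.68 in Control, 17.0 ± 3.30 under Mild IOP and 9.58 ± 0.39 in Moderate IOP, and the Moderate IOP mean was 0.540 times the Control mean. These means rest on 2899, 2524 and 1371 fragments. The log2 difference was −0.82 (SE 0.18) between Moderate IOP and Control, −0.75 (SE 0.18) between Moderate IOP and Mild IOP and −0.07 (SE 0.18) between Mild IOP and Control. Moderate IOP was the lower group without overlap for 9.48% of genes against Control and for 13.0% against Mild IOP. Over 20 alternative settings Tnc remained lower in Moderate IOP, at −0.93 to −0.72 against Control and −0.87 to −0.61 against Mild IOP. The call against Control was lost in 9 of them, among them the omission of Control replicate 1 or 2, of Mild IOP replicate 1 or of any Moderate IOP replicate, and the call against Mild IOP in 3, the omission of Mild IOP replicate 1 or 2 or of Moderate IOP replicate 2.

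The summed level of amacrine cell transcripts was lowest in the same libraries as Tnc, while single markers went both ways. The 10 amacrine markers summed to 1433, 1391 and 1436 scaled FPKM in Control, to 1559, 1625 and 1448 under Mild IOP and to 1094, 1004 and 1160 in Moderate IOP. Of the 9 amacrine markers tested, 2 fell in Moderate IOP against Control and 4 against Mild IOP, with 0 called higher. By sign alone, 4 were higher and 5 lower against Control (median log2 difference −0.08), and 5 were higher and 4 lower against Mild IOP (median 0.115). Slc6a9, the glycine transporter that defines glycinergic amacrine cells, was at 118, 112 and 101 in Control, at 149, 148 and 142 under Mild IOP and at 46.5, 38.9 and 32.6 in Moderate IOP. Gad2, which makes the transmitter GABA, averaged 53.9 ± 7.42, 58.5 ± 3.13 and 32.7 ± 4.81. Tfap2b, an amacrine transcription factor, was among those not called and averaged 57.3 ± 4.81, 54.8 ± 4.79 and 60.4 ± 10.6. The summed level of the 10 RGC markers was highest in Moderate IOP, led by Sncg, or gamma-synuclein, which averaged 911 ± 49.6, 641 ± 117 and 1389 ± 34.1. The list summed to 1456, 1547 and 1511 in Control, to 1317, 1073 and 1323 under Mild IOP and to 2460, 2293 and 2297 in Moderate IOP. Of them, 2 rose in Moderate IOP against Control, among them the neurofilament gene Nefl, and 6 rose against Mild IOP. By sign alone, 8 were higher and 2 lower against Control, and 10 were higher against Mild IOP. The 10 markers of Müller glia, the retina's radial glial cells, summed to 849 to 895 in Control, to 863 to 913 under Mild IOP and to 961 to 1014 in Moderate IOP. Of the 8 tested, 2 were called higher in Moderate IOP than in Control and 3 higher than under Mild IOP, with 0 called lower. Their most abundant gene was Dkk3, which neurons also express and which averaged 485, 509 and 423 in the 3 groups. Rlbp1, the retinaldehyde-binding protein that defines these cells, was at 4.38, 4.64 and 4.37 in Control, at 15.4, 7.61 and 14.2 under Mild IOP and at 21.8, 12.2 and 9.45 in Moderate IOP. The part of amacrine, RGC and Müller glia transcripts in the Tnc values was not tested. Of the astrocyte markers, which label another known source of tenascin-C, the summed level was 2.22 to 4.98 in Control, 2.43 to 2.78 under Mild IOP and 4.27 to 7.38 in Moderate IOP, and Gfap, the defining one, was at 3.13 scaled FPKM or less in every library. Of the 3 astrocyte markers tested, 0 were called in any comparison. Between Moderate IOP and Mild IOP, 2 were higher and 1 lower by sign (median log2 difference 0.87). The part of astrocyte transcripts in the Tnc values was not tested either.

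The profiles closest to Tnc were those of Clstn1, Gas6 and Hdac5, with root mean square distances of 0.067, 0.0971 and 0.0999 on the log2 scale. Clstn1, which encodes the membrane protein calsyntenin-1, averaged 240 ± 16.3 scaled FPKM in Control, 234 ± 34.7 under Mild IOP and 138 ± 7.46 in Moderate IOP. Gas6, the ligand of the TAM receptors, averaged 99.0 ± 6.04, 99.3 ± 11.9 and 59.2 ± 5.60. Hdac5, a histone deacetylase, averaged 44.7 ± 5.09, 41.1 ± 7.02 and 24.8 ± 1.71. These genes were picked for their likeness to Tnc, so their order is no separate result.

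Tnr encodes tenascin-R, the neural tenascin that crosslinks lecticans in perineuronal nets. It was at 1.80, 2.19 and 2.07 scaled FPKM in Control, at 3.34, 3.55 and 1.71 under Mild IOP and at 1.59, 1.87 and 1.21 in Moderate IOP. The groups overlapped in each comparison, through Mild IOP replicate 3 between Mild IOP and the other groups. The log2 difference was −0.57 (SE 0.27) between Moderate IOP and Mild IOP, −0.25 (SE 0.27) between Moderate IOP and Control and 0.32 (SE 0.27) between Mild IOP and Control. Tnr, Bcan, Ncan and Hapln4 were not called in any comparison under any setting.

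**Figure D4:**
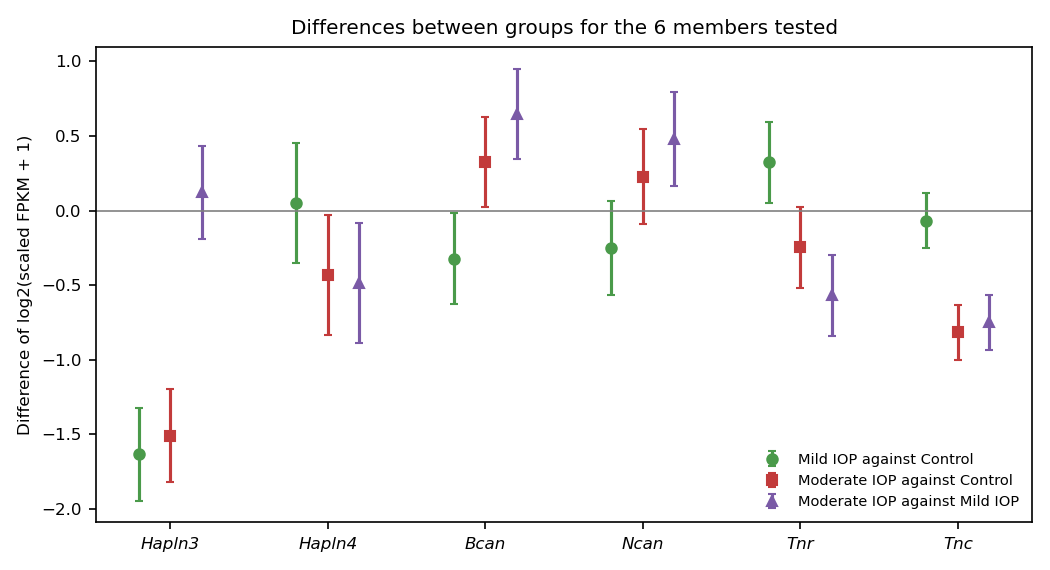
Difference of log2(scaled FPKM + 1) between groups (vertical axis) for the 6 members tested, with bars of 1 standard error from the fit over 9 libraries. Hapln3 was lower in both IOP groups than in Control, at −1.63 and −1.51, and Tnc was lower in Moderate IOP than in Control and in Mild IOP, at −0.82 and −0.75.

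The 4 link protein genes each lie beside a lectican gene at the loci the files give on mm10. Hapln1 (chr13:89540636-89611832) and Vcan (chr13:89655310-89742512) lie 43.5 kb apart. Hapln2 (chr3:88021750-88027511) and Bcan (chr3:87987531-88000356) lie 21.4 kb apart. Hapln3 (chr7:79117027-79131018) and Acan (chr7:79053483-79115099) lie 1.93 kb apart, and Hapln4 (chr8:70083529-70090862) and Ncan (chr8:70093085-70120844) lie 2.22 kb apart. Tnc lies at chr4:63959785-64047015 and Tnr at chr1:159523769-159924922. All but Hapln2 and Bcan point toward each other. In 3 of the pairs the genes stood at different levels over most libraries. Hapln3 was detected in 7 libraries where its neighbour Acan was at 0 in all, Bcan was detected in 9 where Hapln2 was detected in 1, and Hapln4 averaged 6.39 scaled FPKM beside 1.10 for Ncan. Hapln1 and Vcan, both near the limit of detection, overlapped, with Hapln1 the higher in 4 of 9 libraries. Vcan is overlapped on the opposite strand by the noncoding gene Gm4117, which the files do not list.

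Replicates of one pool differed beyond their deposited intervals for many genes, members included. At least 1 pair of the 3 intervals did not overlap for 67.5% of tested genes in Control, 55.1% under Mild IOP and 68.8% in Moderate IOP. The same was seen for 5 of the 10 members in Control, 6 under Mild IOP and 5 in Moderate IOP, counting an estimate of 0 as an interval at 0. For Tnc this held in Control and Mild IOP and not in Moderate IOP, where the 3 intervals overlapped.

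Beyond the members, 78 other genes of the hyaluronan and chondroitin sulfate matrix were listed, in 8 roles, and 49 of them were abundant enough to be tested. With limma, 0 were called between Mild IOP and Control, 0 between Moderate IOP and Control and 1 between Moderate IOP and Mild IOP, against 0.399%, 1.84% and 10.2% of all genes. An unadjusted p below 0.05 was reached by 2, 6 and 10 of them, where 10.2%, 15.3% and 21.8% of all genes reached it. The gene called was Nptx1, which encodes neuronal pentraxin 1, a secreted protein that clusters glutamate receptors. It was at 37.9, 28.7 and 31.4 scaled FPKM in Control, at 34.7, 34.2 and 32.8 under Mild IOP and at 24.2, 22.8 and 24.3 in Moderate IOP. The log2 difference between Moderate IOP and Mild IOP was −0.50 (SE 0.14, adjusted p = 0.0644 by limma with Benjamini-Hochberg adjustment), and all 3 Moderate IOP libraries were below all others. The call was lost without a variance trend. It was also lost on omission of Mild IOP replicate 1 or 2 or of Moderate IOP replicate 2 or 3. The median difference of the 49 genes was 0.06 under Mild IOP and −0.06 in Moderate IOP against Control, and −0.13 between Moderate IOP and Mild IOP, beside −0.02 for all genes in the last.

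The enzymes that make the chondroitin sulfate chains of lecticans differed widely in level, from 0.316 scaled FPKM for Chsy3, a chain-extending enzyme, to 60.9 for B3gat3 as means over the 9 libraries. B3gat3, which completes the linker on which the chain is built, averaged 63.7 ± 8.65 scaled FPKM in Control, 54.8 ± 7.84 under Mild IOP and 64.3 in Moderate IOP, where its libraries lay between 50.5 and 71.7. Of 11 synthesis genes 10 were tested, and 0 were called in any comparison. Their summed level was 150 to 194 in Control, 164 to 175 under Mild IOP and 143 to 167 in Moderate IOP. Among the 9 modifying enzymes, the sulfotransferase Chst12 led with 22.6 ± 5.32, 19.7 ± 0.785 and 25.4 ± 0.179.

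On the hyaluronan side, Has2, the main hyaluronan synthase of many tissues, and the hyaluronidase Spam1 were at 0 in all libraries. Has1 averaged 0.427. The turnover class was led by Hexa, a lysosomal hexosaminidase, at 45.2 ± 5.16 in Control, 37.4 ± 2.66 under Mild IOP and 38.7 ± 6.61 in Moderate IOP. Of the 9 hyaluronan receptors and binders only Impg1, a proteoglycan of the matrix around photoreceptors, passed the filter, at 1.11 ± 0.890, 0.861 ± 0.327 and 1.25 ± 0.843. The class of lectican-cleaving proteases and their inhibitors was led by Mmp9, a matrix metalloproteinase, at 59.1 ± 3.44, 57.0 ± 3.71 and 47.0 ± 7.40, and its member Mmp3 was at 0 throughout. Of its 14 genes 7 were tested and 0 were called.

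Among the other proteoglycans and tenascins, Cspg5, or neuroglycan C, averaged 45.0 ± 6.66 in Control, 46.5 ± 1.93 under Mild IOP and 46.0 ± 6.75 in Moderate IOP, and Tnn was at 0. The receptors were led by Ptprs, a phosphatase that binds chondroitin sulfate and restrains axon growth, at 41.4 ± 1.88, 44.1 ± 4.17 and 34.4 ± 2.58. Of 13 receptors 10 were tested and 0 were called. An unadjusted limma p below 0.05 was reached by 1 in Mild IOP and 2 in Moderate IOP against Control, and 4 between IOP groups. Across all genes, 10.2%, 15.3% and 21.8% reached it in these comparisons. Among the 6 proteins that bind perineuronal nets, all of them tested, Nptx2 was the most abundant, at 59.0 ± 1.69, 57.1 ± 2.10 and 51.2 ± 6.25.

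**Figure D5:**
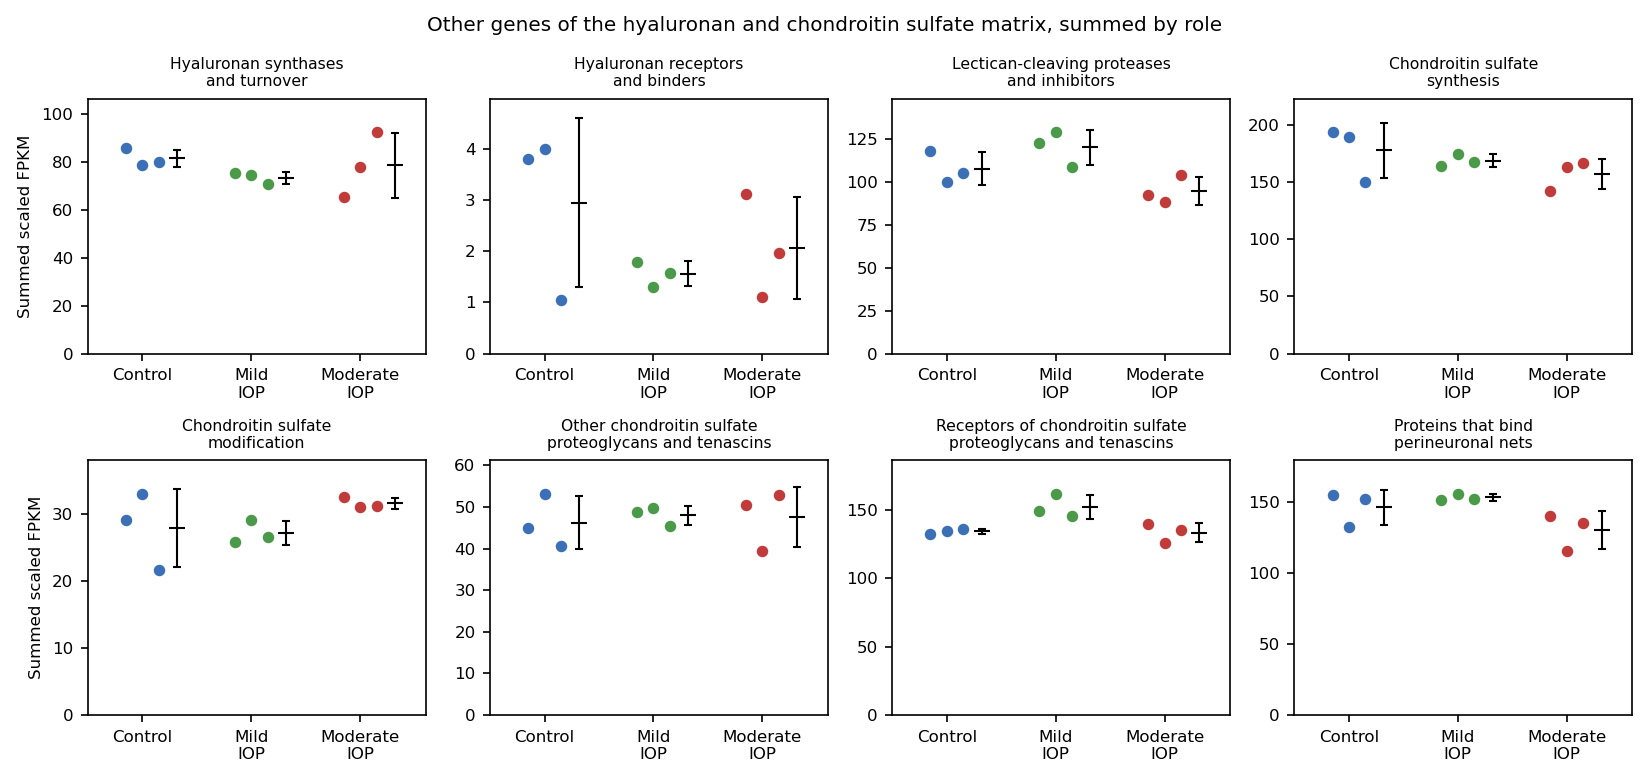
Summed scaled FPKM (vertical axis, a different scale in each panel) of the other matrix genes in each of 8 roles, by library. Points are libraries, replicates 1 to 3 from left, and bars show the mean and SD of 3. The synthesis class ran from 143 to 194 over the 9 libraries, and the hyaluronan receptors and binders stayed at 4.01 or below.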

How the data were processed

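RNA of immunopanned RGCs was primed with oligo-dT (SMART-seq v4), made into Nextera XT libraries, which do not mark strand, and sequenced on a HiSeq2500. Reads were aligned by the authors to mm10, with bowtie2 per their methods, whereas the submitters' processing notes name FastQC, Trimmomatic, TopHat2, Cufflinks and Cuffdiff. The annotation is not given in the sources used here. The deposited values are FPKM per locus, estimated by the authors for each library on its own, with a 95% interval. The authors' cuffdiff tests, which start from alignments, were not rerun.

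Loci that share a symbol were added up. Each library was divided by its median-of-ratios factor (0.983 to 1.06), and 2 symbols with a failed estimate were left out. The fragments behind a value were derived from its interval as (2 × FPKM / (upper bound − FPKM)) squared, and depth from transcripts of at least 2000 nt in GENCODE M21. This covers counting error only, and PCR copies are not independent molecules. Groups and replicate numbers came from the labels. Genes with a mean of at least 0.5 were fitted on log2(scaled FPKM + 1) in R 4.3.3 by limma 3.58.1, with a mean per group, a variance trend and Benjamini-Hochberg adjustment within each comparison. The fit was tested on simulated data, and no result of that test is given here. Summaries and figures used Python 3.11.15, numpy 2.4.6, pandas 2.3.3 and matplotlib 3.10.9. Alternatives covered scaling, pseudocount, filter, failed estimates, loci, variance, replicate block and each library left out.

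The members, the 13 cell type lists and the matrix list were chosen with earlier results of these data known. Named besides the members were matrix genes called in any comparison and the most abundant of each role, the most abundant and defining marker of each cell type, and the 3 profiles nearest to Hapln3 and Tnc by root mean square distance. Some genes that meet these criteria are not reported here. Has1, Has2, Spam1, Mmp3, Tnn, Itgav, Chsy3, Lim2, Bfsp1, Bfsp2, Mip, Gad1, Gad2, Tfap2b and Nefl were added after their values were seen. Of the 10 members 9 had a RefSeq promoter window, and Hapln4 had none.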

Additional observations from a re-analysis of the deposited data

Results flagged for a closer look

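Among the 6 tested members and the 49 tested genes of the matrix list, 4 had every Mild IOP library on one side of the Control mean and every Moderate IOP library on the other, a share of 7.27% beside 8.94% of all 13043 genes tested. They were picked for this pattern, and it was not tested separately from that choice. The log2 difference between Moderate IOP and Mild IOP was −0.50 for Nptx1, 0.65 for Bcan, 0.35 for Chst12, a chondroitin sulfotransferase, and −0.63 for Itgav, an integrin subunit that binds tenascin-C.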

How the results depend on the processing

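The counts of genes called in Mild IOP against Control were the least stable. The 52 genes became 25 with upper-quartile scaling, 24 without a filter on low values, 11 with variance from the compared groups alone, 25 with a replicate block and 15 without a variance trend, and lay between 14 and 172 with 1 library left out. For Moderate IOP against Control the 240 genes became 134 with variance from the compared groups alone, 135 with the replicate block and 144 without a variance trend, and 61 to 271 with 1 library left out. For Moderate IOP against Mild IOP the 1324 genes became 839 without a variance trend and 518 to 1362 with 1 library left out. Of these 1324, 917 were higher and 407 lower, against 731 and 662 without scaling and 710 and 702 with upper-quartile scaling. The cause of these moves was not tested.

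The 1 member called in Mild IOP became 0 with upper-quartile scaling, a pseudocount of 0.1, the replicate block, variance from the compared groups alone and a mean of at least 2, which removes Hapln3 from the test. It was 0 to 1 with 1 library left out. The 2 members called in Moderate IOP became 1 with a pseudocount of 0.1, a mean of at least 2, the replicate block and no variance trend, and 0 with variance from the compared groups alone, and 0 to 2 with 1 library left out. The 1 member called between the IOP groups was 0 to 1 with 1 library left out. In the matrix list, the 1 call between the IOP groups became 3 without scaling, 5 with upper-quartile scaling, 2 without a filter, with a mean of at least 2, with failed estimates kept and with the replicate block, 0 without a variance trend, and 0 to 2 with 1 library left out. In both comparisons with Control it stayed at 0 with 1 library left out. Of the member differences, 4 moved by more than the replicate spread, all of them Hapln3, which came to −3.59 under Mild IOP and −3.26 under Moderate IOP with a pseudocount of 0.1 and to −2.25 and −2.06 with 0.5. Libraries with the same replicate number showed little shared deviation (r from −0.005 to 0.044, median 0.012, over 9 pairs). Pairs with different numbers gave r from −0.051 to 0.042, median −0.009, over 18 pairs. Not every library correlated best with its own number. No pairing by number was seen, but so few libraries cannot exclude one.

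Pools without biological replicates limit every comparison, and for Hapln1, Hapln2, Hapln3, Vcan and Acan the number of fragments limits it further.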

Other observations

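The other cell type lists are given by their levels. Between Moderate IOP and Mild IOP, 1 of 7 bipolar markers tested was called higher and 1 of 2 pericyte and fibroblast markers lower. Across all genes 10.2% were called in this comparison. The part of these lists in the Hapln3 and Tnc values was not tested. Bipolar markers summed to 64.8 to 80.6, 57.6 to 72.1 and 91.5 to 105 scaled FPKM in Control, Mild IOP and Moderate IOP, led by Pcp2. By sign alone, 3 of the 7 tested were higher and 4 lower in Moderate IOP than in Mild IOP (median log2 difference −0.18). Against Control, 4 were higher and 3 lower (median 0.22). The defining Grm6 was lowest in Moderate IOP, averaging 2.12 in Control, 2.47 under Mild IOP and 1.24 in Moderate IOP. The horizontal cell markers, led by Calb1, summed to 25.2 to 32.7 in Control, 32.6 to 39.7 under Mild IOP and 34.6 to 44.7 in Moderate IOP. Of the 3 tested, 0 were called in any comparison, and 3 were higher by sign in Moderate IOP than in Control. Their defining gene Lhx1 was at 0 throughout. Cone markers summed to 5.91 to 19.1, led by Pde6h, with Arr3 at 2.00 or below.

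Microglia markers summed to 17.0 to 28.3 in Control, 18.7 to 32.45 under Mild IOP and 27.1 to 35.2 in Moderate IOP. They were led by C1qb, which averaged 8.89, 13.2 and 16.8, and Cx3cr1 stayed at 1.44 or below. Of the 7 tested, 0 were called in any comparison, and by sign 4 were higher and 3 lower in Moderate IOP than in Control. The oligodendrocyte lineage list, led by Cnp, summed to 9.33 to 15.5, and its defining gene Mog was at 0. Endothelial markers, led by Kdr, summed to 2.30 to 4.44, and Cldn5 was at 0. Pericyte and fibroblast markers, led by Rgs5, summed to 0.707 to 3.04 in Control, 5.02 to 9.26 in Mild IOP and 3.41 to 4.90 in Moderate IOP, with Pdgfrb at 0.190 or below. S100b, the most abundant astrocyte marker, averaged 1.36 over all libraries.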
